A study of Mus musculus with 9 samples.

Results

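Ribosome biogenesis genes and Myc were followed in basal epidermal cells around a healing wound of mouse tail skin. The set was a fixed list of 36 gene names, drawn up with earlier results of these arrays known, namely Myc and 35 genes for proteins that make or assemble ribosomes. Of these, 34 could be read from a probe set with a single gene symbol, out of 17097 genes measured in the same way, and Gnl3 and Mybbp1a were not analysed here. Where a gene had several probe sets, the one with the highest mean over all arrays was used.

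Basal cells of the interfollicular epidermis, positive for α6 integrin and negative for CD34, a marker of hair follicle bulge cells, were sorted 4 days (D4) after a 3 mm wound, and RNA of 300 cells was hybridised to each microarray. Leading edge (LE) cells came from a 4 mm punch around the wound and were gated as positive for α5 integrin (ITGA5). Proliferative hub cells were ITGA5 negative by their labels. The study took the hub with a second punch of 6 mm, after the 4 mm one. Its figure of the ITGA5 sort names only the 4 mm punch and control skin. The control was skin taken at a distance from the wound, with no ITGA5 gate in the labels of its cells. Each group had 3 arrays. The mice were of the CD1 stock, tissue was pooled from 5 mice, and no transgene or treatment other than the wound was named for these groups. The ages of the mice used for the arrays are not given in the sources used here. Wound region and ITGA5 gate went together, so their effects cannot be told apart. Since the arrays are biological replicates by their labels and technical ones by the methods, the spread that p-values rest on may be technical.

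Ribosomes are built in the nucleolus. RNA polymerase I transcribes the ribosomal RNA precursor from repeated genes, small nucleolar ribonucleoproteins of the box C/D and box H/ACA classes guide its methylation and pseudouridylation, and separate sets of assembly factors fold and cleave it into the small and large subunits. Myc, a transcription factor that binds DNA as a dimer with Max, is known to activate genes of every one of these steps, and ribosome production usually rises when cells grow and divide. In basal keratinocytes Myc is also known to drive cells out of the stem cell compartment when it is overexpressed.

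Values are deposited log2 signals, on which a difference of 1 is a 2-fold change, and differences are given with their standard errors. The median of the probe sets meant for nonspecific background was 4.66 and their 90th percentile 7.21, and all 34 members lay above 7.21 on each of the 9 arrays, 24 of them also above the highest nonspecific value of 8.61. Median signals per array ranged from 6.47 to 6.53, and correlations between arrays ranged from 0.988 to 0.995 within groups and from 0.964 to 0.986 between groups. Krt5 and Krt14, the basal keratins, lay between 13.23 and 13.34 on every array. Of 6 basal markers, Itga6, the gene of the sorted α6 integrin, and Itgb4 were called higher at the LE. Their LE minus hub differences were 0.47 ± 0.06 and 0.38 ± 0.06 (limma, adjusted p = 0.00162 and 0.00375). Against control skin they were 0.69 ± 0.06 and 0.34 ± 0.06 (limma, adjusted p = 5.6e-05 and 0.00329). Krt5, Krt14, Trp63 and Col17a1 were not called in any comparison. Itga5 followed the gate, at 9.06 to 9.17 at the LE, 6.46 to 7.47 in the hub and 6.23 to 6.5 in control skin.

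Myc itself was lowest at the LE. It measured 10.40, 10.43 and 10.57 at the LE, 11.09, 11.02 and 10.98 in the hub, and 11.38, 11.46 and 11.41 in control skin. The 3 groups did not overlap, with every hub array between the LE arrays and the control arrays. Myc was lower by 0.56 ± 0.07 at the LE than in the hub (1.48-fold, adjusted p = 0.000989) and lower by 0.95 ± 0.07 than in control skin (1.93-fold, adjusted p = 1.42e-05; limma, Benjamini-Hochberg adjustment over all genes). In the hub it was lower than in control skin by 0.39 ± 0.07 (1.31-fold, adjusted p = 0.0112). Both LE calls were kept without any 1 array, whereas the hub call missed the threshold without hub replicate 3 (adjusted p = 0.0512). A lower level in every cell and a smaller share of expressing cells cannot be told apart in RNA from sorted pools, here or in the results that follow.

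The best known DNA site of Myc with Max is the E-box CACGTG. Windows from 250 bases before to 50 bases after the annotated gene start (RefSeq, GRCm38.p6) were at hand for 27 of the 34 members. CACGTG, which reads the same on both strands, was present in 5 of these 27 (18.5%), beside 10.2% of 13605 tested genes with a window. The variant CACGCG, searched on both strands, was present in 9 (33.3%), beside 16.2%. A match describes the sequence and does not show a bound site. The sites are printed because Myc differed between the regions, and a link between the sites and the calls was not tested. Each line gives 30 bases 5′ to 3′ on the strand of the gene, with the E-box in capitals and the position of its first base relative to the gene start.
Nop2, chr6:125131811-125131840, plus strand, at -60: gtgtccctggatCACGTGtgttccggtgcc
Pes1, chr11:3963965-3963994, plus strand, at +2: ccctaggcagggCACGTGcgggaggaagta
Utp20, chr10:88826765-88826794, minus strand, at +37: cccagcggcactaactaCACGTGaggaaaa
Rrn3, chr16:13780472-13780501, plus strand, at -215: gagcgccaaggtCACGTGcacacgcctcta
Rrn3, chr16:13780639-13780668, plus strand, at -48: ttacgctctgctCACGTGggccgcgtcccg
Wdr43, chr17:71616220-71616249, plus strand, at +17: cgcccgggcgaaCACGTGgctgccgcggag
Nop2 and Pes1 were called lower at the LE than in the hub, and Utp20, Rrn3 and Wdr43 were not called in any comparison. These 2 of 5 genes stand beside 9 of all 34 members (26.5%) and 5.23% of all genes called lower.

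LE cells were first set against hub cells, which asks how cells at the wound front differ from those behind them. Of the 34 members, 9 (26.5%) were lower at the LE, beside 5.23% of all genes called lower, and 0 were higher, beside 5.39%, also at an unadjusted p under 0.05. The 9 were Myc, Polr1b, Polr1a, Nop10, Dkc1, Nop14, Nop2, Pes1 and Ncl. They came from every role except the box C/D group. Estimates were below 0 for 32 of the 34, with a median of -0.21 against -0.01 over all genes, and 23 members had all LE arrays below all hub arrays, beside 15.4% of all genes, while 0 lay above, beside 14.5%. The differences were small, under 0.5 on the log2 scale for 32 members and over 1 for 0. Without LE replicate 2 or hub replicate 3 the number called lower was 4, and without hub replicate 1 it was 5. Myc, Polr1b, Nop10 and Nop2 were called in every fit that left out 1 array.

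**Figure D1:**
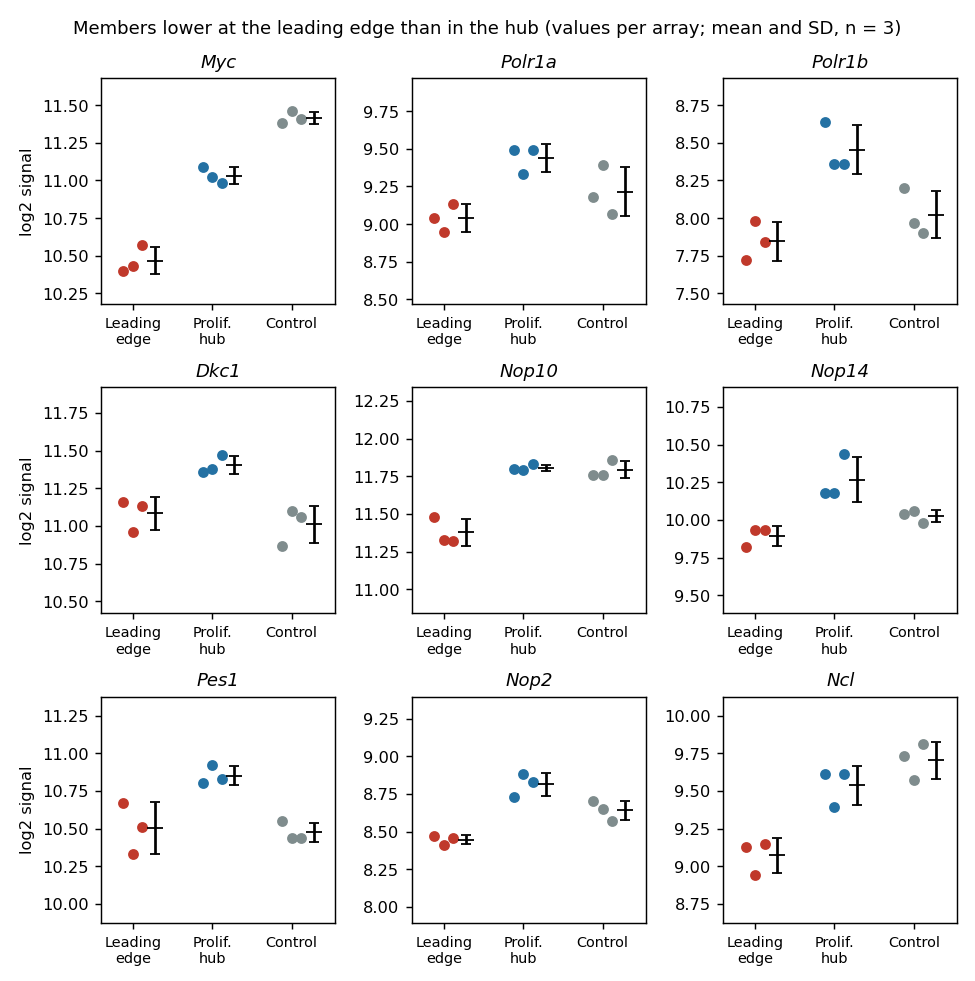
Log2 signal on each array (points) with the mean and SD of each group (bar, n = 3 arrays) for the 9 members called lower for leading edge versus proliferative hub. In every panel the 3 leading edge arrays lie below the 3 hub arrays, and in the panel of Myc the control arrays lie highest, between 11.38 and 11.46.

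LE cells were then set against control skin. Here 3 members (8.82%) were lower, beside 10.8% of all genes called lower, and 0 were higher, beside 11.9%. At an unadjusted p under 0.05, 6 were lower and 4 were higher. The 3 were Myc, Ncl and Nop10, and each was called without any 1 array. The median of the 34 was 0.01, against 0.02 over all genes, and 8 members lay below and 2 above control with no overlap, beside 16.2% and 20.0% of all genes. Without control replicate 2, 2 members were called higher.

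Hub cells against control skin gave the opposite balance. Of the 34 members, 6 (17.6%) were higher in the hub, beside 4.16% of all genes, and 1, Myc, was lower, beside 3.12%. The 6 were Ftsj3, Nhp2, Dkc1, Pes1, Nop56 and Rrp9. Estimates were above 0 for 28 of the 34, with a median of 0.21 against 0.03 over all genes, and 20 members had all hub arrays above all control arrays, beside 14.4%, while 1 lay below, beside 9.41%. Each of these 7 calls was lost without at least 1 array. The number called higher was 0 without hub replicate 2 or hub replicate 3, and 2 without hub replicate 1 or control replicate 1.

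Read across the groups, 26 of the 34 members had their highest mean in the hub, 6 in control skin and 2 at the LE, beside 29.6% of all genes highest in the hub. The 3 comparisons share arrays, so their counts are not independent. The median of the members relative to each gene's control mean was 0.03, -0.08 and 0.03 on the LE arrays, 0.14, 0.19 and 0.22 on the hub arrays, and -0.03, 0.06 and -0.02 on the control arrays. The hub arrays thus lay above all others. LE replicate 2 held the lowest LE value for 25 of the 34 members, beside 29% of all genes.

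**Figure D2:**
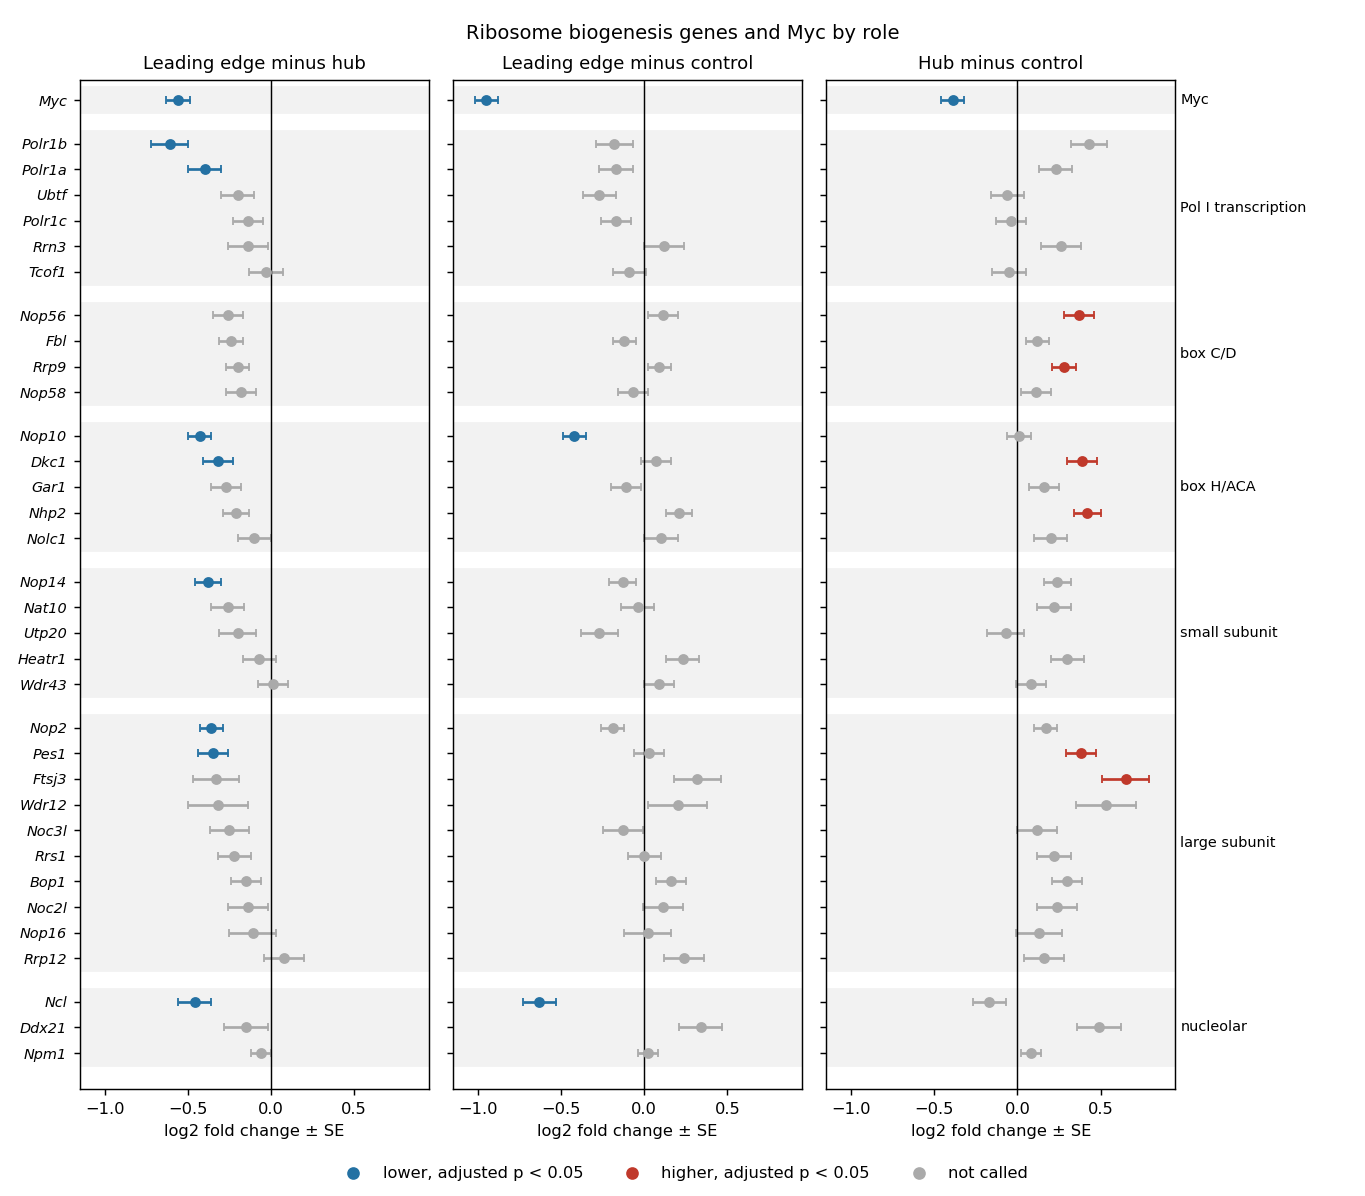
Log2 fold change with its standard error for each of the 34 members, in rows by role, for leading edge minus hub, leading edge minus control and hub minus control. Blue points were called lower, red points higher, and grey points were not called; the hub minus control panel has 28 of 34 estimates above 0 while Myc lies at -0.39.

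Among 6 genes of RNA polymerase I transcription, the subunits Polr1b and Polr1a (33.3%) were lower at the LE than in the hub, beside 5.23% of all genes. No gene of the group was called against control. Polr1b, the second largest subunit, measured 7.72, 7.98 and 7.84 at the LE, 8.64, 8.36 and 8.36 in the hub, and 8.20, 7.97 and 7.90 in control skin. The hub arrays stood above all 6 others, and the LE was lower than the hub by 0.61 ± 0.11 (adjusted p = 0.00793). Polr1a, the largest subunit, measured 9.04, 8.95 and 9.13 at the LE, 9.49, 9.33 and 9.49 in the hub, and 9.18, 9.39 and 9.07 in control skin. It was lower at the LE than in the hub by 0.40 ± 0.10 (adjusted p = 0.0279). That call was lost without LE replicate 1 or 2 or hub replicate 1 or 3 (adjusted p from 0.0723 to 0.105), and its other probe sets gave estimates of 0.04 ± 0.14 and 0.03 ± 0.16.

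The other genes of polymerase I transcription were not called. Ubtf, which binds the ribosomal DNA promoter, measured 9.64, 9.63 and 9.57 at the LE, 9.91, 9.75 and 9.78 in the hub, and 9.75, 10.10 and 9.79 in control skin. Its LE arrays lay below the other 6, yet the LE estimates of -0.20 ± 0.10 against the hub and -0.27 ± 0.10 against control missed the threshold (adjusted p = 0.263 and 0.0821). Polr1c, a subunit shared with polymerase III, measured 11.00, 10.85 and 10.99 at the LE, 11.15, 10.92 and 11.19 in the hub, and 11.20, 11.06 and 11.10 in control skin. A dimmer probe set of Polr1c was called lower at the LE than in the hub (-0.35 ± 0.07, adjusted p = 0.0173 over all probe sets) and lower than in control skin (-0.24 ± 0.07, adjusted p = 0.0474). Rrn3, which brings the polymerase to the promoter, and Tcof1, a cofactor of ribosomal DNA transcription, had LE minus hub estimates of -0.14 and -0.03.

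The box C/D ribonucleoprotein genes were higher in the hub than in control skin in 2 of 4 cases and in no case called at the LE. Nop56, a scaffold of the particle, measured 10.33, 10.27 and 10.35 at the LE, 10.54, 10.65 and 10.53 in the hub, and 10.03, 10.28 and 10.31 in control skin. Rrp9, which belongs to the U3 particle needed for cleavage of the precursor, measured 8.60, 8.55 and 8.72 at the LE, 8.79, 8.83 and 8.84 in the hub, and 8.50, 8.59 and 8.52 in control skin. In both genes the hub arrays stood above all others, by 0.37 ± 0.09 for Nop56 (adjusted p = 0.0328) and 0.28 ± 0.07 for Rrp9 (adjusted p = 0.0378) over control. The Nop56 call was lost without LE replicate 2 or 3, any 1 hub array or control replicate 1 (adjusted p from 0.0537 to 0.114), and the Rrp9 call without LE replicate 2 or any 1 hub or control array (adjusted p from 0.0534 to 0.13). Fbl, the methyltransferase fibrillarin, measured 12.07, 11.90 and 11.96 at the LE, 12.21, 12.20 and 12.24 in the hub, and 12.07, 12.17 and 12.04 in control skin. Its LE minus hub estimate was -0.24 ± 0.07 (adjusted p = 0.0632), and that of Nop58, the other scaffold, was -0.18 ± 0.09.

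Box H/ACA genes held calls in all 3 comparisons. Of 5, 2 (40.0%) were lower at the LE than in the hub, beside 5.23% of all genes. Against control skin 1 (20.0%) was lower at the LE, beside 10.8%, and 2 (40.0%) were higher in the hub, beside 4.16%. Nop10, a small core subunit of the pseudouridylation particle, measured 11.48, 11.33 and 11.32 at the LE, 11.80, 11.79 and 11.83 in the hub, and 11.76, 11.76 and 11.86 in control skin. Hub and control arrays overlapped and the LE arrays lay apart, lower by 0.43 ± 0.07 than the hub (adjusted p = 0.00383) and by 0.42 ± 0.07 than control skin (adjusted p = 0.00199). Its other probe set was lower at the LE than in the hub (-0.39 ± 0.09, adjusted p = 0.0303 over all probe sets) and missed the threshold against control (-0.29 ± 0.09, adjusted p = 0.0589).

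Dkc1, the pseudouridine synthase of the same particle, showed another pattern. It measured 11.16, 10.96 and 11.13 at the LE, 11.36, 11.38 and 11.47 in the hub, and 10.87, 11.10 and 11.06 in control skin, so that LE and control overlapped and the hub stood above both. The LE was lower than the hub by 0.32 ± 0.09 (adjusted p = 0.0451), and the hub was higher than control by 0.39 ± 0.09 (adjusted p = 0.0258). The first call was lost without any 1 LE or hub array or control replicate 2 or 3 (adjusted p from 0.0508 to 0.157), and the second without any 1 hub array or control replicate 1 (adjusted p from 0.0571 to 0.101). The dimmer probe set of Dkc1 was not called in any comparison. Nhp2, another core subunit, measured 10.87, 10.76 and 10.76 at the LE, 10.92, 11.00 and 11.12 in the hub, and 10.46, 10.62 and 10.69 in control skin. Its groups did not overlap, with the hub highest and control lowest. The hub was higher than control by 0.42 ± 0.08 (adjusted p = 0.0169), a call lost without hub replicate 2 or 3 (adjusted p of 0.0533 and 0.0705) and not made for its other probe set. Gar1, the remaining core subunit, and Nolc1, a chaperone of nucleolar particles, had LE minus hub estimates of -0.27 and -0.10 and were not called. A second Nolc1 probe set was called higher in the hub than in control skin (0.41 ± 0.09, adjusted p = 0.0219 over all probe sets).

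For the assembly factors of the small subunit, 1 of 5 (20.0%) was called, lower at the LE than in the hub, beside 5.23% of all genes. Nop14 measured 9.82, 9.93 and 9.93 at the LE, 10.18, 10.18 and 10.44 in the hub, and 10.04, 10.06 and 9.98 in control skin. All LE arrays lay below control and all control arrays below the hub, and the LE was lower than the hub by 0.38 ± 0.08 (adjusted p = 0.0204). The call was lost without any 1 LE array or hub replicate 3 (adjusted p from 0.0521 to 0.0677). Heatr1, needed for transcription and early processing of the precursor, measured 8.42, 8.24 and 8.37 at the LE, 8.32, 8.43 and 8.49 in the hub, and 8.20, 8.23 and 7.91 in control skin. LE and hub overlapped and both lay above control, but neither difference was called (0.23 ± 0.10 for LE minus control, adjusted p = 0.14, and 0.30 ± 0.10 for hub minus control, adjusted p = 0.119).

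Utp20 and Wdr43, 2 further factors of the small subunit, carried an E-box in the windows above. Utp20 measured 8.81, 8.70 and 8.78 at the LE, 8.78, 8.97 and 9.15 in the hub, and 8.88, 9.14 and 9.09 in control skin. Wdr43 measured 10.25, 10.25 and 10.47 at the LE, 10.23, 10.39 and 10.32 in the hub, and 10.10, 10.27 and 10.33 in control skin. Wdr43 overlapped between all groups, with a LE minus hub estimate of 0.01 and a 95% interval from -0.20 to 0.22. Nat10, an RNA acetyltransferase, had a LE minus hub estimate of -0.26 ± 0.10 (adjusted p = 0.175).

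The large subunit group had 10 measured members, of which 2 (20.0%) were lower at the LE than in the hub, beside 5.23% of all genes. In the hub 2 (20.0%) were higher than in control skin, beside 4.16%. Nop2, a ribosomal RNA methyltransferase, measured 8.47, 8.41 and 8.46 at the LE, 8.73, 8.88 and 8.83 in the hub, and 8.70, 8.65 and 8.57 in control skin. The groups did not overlap, and the LE was lower than the hub by 0.36 ± 0.07 (adjusted p = 0.00865) while its difference of -0.19 ± 0.07 from control missed the threshold (adjusted p = 0.0814). Pes1, a subunit of the PeBoW complex with Bop1 and Wdr12, measured 10.67, 10.33 and 10.51 at the LE, 10.80, 10.92 and 10.83 in the hub, and 10.55, 10.44 and 10.44 in control skin. Only the hub stood apart, with the LE lower by 0.35 ± 0.09 (adjusted p = 0.0426) and the hub above control by 0.38 ± 0.09 (adjusted p = 0.0396). The first call was lost without LE replicate 2 or 3, any 1 hub array, or control replicate 2 or 3 (adjusted p from 0.0524 to 0.14), and the second without LE replicate 3 or any 1 hub or control array (adjusted p from 0.0538 to 0.131). A second Pes1 probe set, with a mean of 6.42 inside the range of nonspecific probe sets, gave 0.01 ± 0.14 for LE minus hub and -0.44 ± 0.14 for hub minus control, neither called.

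Ftsj3, another methyltransferase of the large subunit pathway, had the largest hub minus control difference of the 34 members. It measured 9.53, 9.27 and 9.48 at the LE, 9.65, 9.85 and 9.78 in the hub, and 9.06, 9.42 and 8.86 in control skin, and the hub was higher than control by 0.65 ± 0.14 (adjusted p = 0.0206). The hub arrays stood above all others, and the call was lost without hub replicate 2 or 3 or control replicate 1 (adjusted p from 0.0567 to 0.0755). Rrs1, which joins the 5S ribonucleoprotein to the precursor, measured 11.08, 10.76 and 11.05 at the LE, 11.10, 11.18 and 11.27 in the hub, and 11.05, 10.96 and 10.88 in control skin. The hub was highest without a call. Bop1, Wdr12, Nop16, Noc2l, Noc3l and Rrp12 were not called either, with LE minus hub estimates from -0.32 for Wdr12 to 0.08 for Rrp12. A dimmer probe set of Noc2l was called lower at the LE than in control skin (-0.84 ± 0.18, adjusted p = 0.00783 over all probe sets).

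Of the 3 abundant nucleolar proteins, Ncl alone was called. It was lower at the LE than in hub and control (33.3%, beside 5.23% and 10.8% of all genes). Only 1 probe set of Ncl was read, with a mean of 9.44 over the 9 arrays. Ncl encodes nucleolin, a chaperone of the nascent precursor, and measured 9.13, 8.94 and 9.15 at the LE, 9.61, 9.39 and 9.61 in the hub, and 9.73, 9.57 and 9.81 in control skin. Hub and control overlapped, and the LE was lower by 0.46 ± 0.10 than the hub (adjusted p = 0.0155) and by 0.63 ± 0.10 than control skin (adjusted p = 0.00136). The call against the hub was lost without LE replicate 2 or hub replicate 1 or 3 (adjusted p from 0.0614 to 0.0634). Npm1, the histone and ribosomal protein chaperone nucleophosmin, measured 12.60, 12.59 and 12.64 at the LE, 12.68, 12.65 and 12.68 in the hub, and 12.57, 12.60 and 12.61 in control skin. Its LE minus hub difference was -0.06, with a 95% interval from -0.19 to 0.07. Ddx21, an RNA helicase of the nucleolus, measured 10.92, 10.74 and 11.04 at the LE, 11.01, 11.08 and 11.06 in the hub, and 10.67, 10.75 and 10.26 in control skin. The hub lay above control by 0.49 ± 0.13, which missed the threshold (adjusted p = 0.0512), and a dimmer Ddx21 probe set was called lower at the LE than in the hub (-0.48 ± 0.08, adjusted p = 0.00494 over all probe sets).

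Across the 18 members with several probe sets, the 21 probe sets not used above were below 0 in 18 cases for LE minus hub and above 0 in most cases for hub minus control, with 3 below. No member had probe sets called in opposite directions.

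The wider pathway was read from lists of other polymerase I, small subunit and large subunit factors, 89 genes in all. At the LE 9 (10.1%) were lower than in the hub, beside 5.23% of all genes, and 0 were higher (1 at an unadjusted p under 0.05), with a median of -0.13. Nsa2, a factor of the large subunit, was lower by 0.62 ± 0.07 (adjusted p = 0.000575), Taf1d, of the polymerase I selectivity complex, by 0.56 ± 0.10 (adjusted p = 0.00466), and Rrp7a, of the small subunit, by 0.41 ± 0.08 (adjusted p = 0.00782). Against control skin the LE had 6 (6.74%) lower and 11 (12.4%) higher, beside 10.8% and 11.9% of all genes, shares below or near those of all genes. Nsa2 was again lower, by 0.75 ± 0.07 (adjusted p = 5.97e-05), while Noc4l and Utp4, of the small subunit, were higher by 0.60 ± 0.08 (adjusted p = 0.000664) and 0.69 ± 0.10 (adjusted p = 0.000928). In the hub 12 (13.5%) were higher than in control skin, beside 4.16% of all genes, and 0 were lower (2 at an unadjusted p under 0.05), with a median of 0.20. They included Noc4l at 0.52 ± 0.08 (adjusted p = 0.00599) and Brix1, of the large subunit, at 0.50 ± 0.10 (adjusted p = 0.02). The number higher in the hub was 2 without hub replicate 3, 5 without hub replicate 2 or control replicate 1 and 7 without LE replicate 1. The number lower at the LE than in the hub was 5 without LE replicate 2 or hub replicate 3 and 4 without hub replicate 2, and the number higher at the LE than in control skin was 7 without LE replicate 1.

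RNA polymerase III, which transcribes 5S ribosomal RNA and transfer RNAs, and the RNA exosome, which trims the precursor, were read as well. Of 18 RNA polymerase III genes, Polr3d was higher at the LE than in the hub (0.42 ± 0.11, adjusted p = 0.0358) and none were lower (2 at an unadjusted p under 0.05, limma). The Polr3d call was lost without LE replicate 2 or 3 or any 1 hub array (adjusted p up to 0.124). The share higher, 5.56%, was near the 5.39% of all genes. Against control skin, Maf1 was lower and Polr3d higher at the LE (5.56% each, beside 10.8% and 11.9% of all genes). Polr3e was higher in the hub than in control skin (5.56%, beside 4.16%). Of 12 genes of the exosome, Exosc1 (8.33%, beside 5.23% of all genes) was lower at the LE than in the hub (-0.52 ± 0.09, adjusted p = 0.00557). Against control skin 3 exosome genes (25.0%) were lower at the LE and 2 (16.7%) were higher, beside 10.8% and 11.9% of all genes. In the hub 3 (25.0%) were higher than in control skin, beside 4.16% of all genes, with Exosc3 at 0.37 ± 0.07 (adjusted p = 0.011).

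The ribosomal proteins, the products that these factors assemble, differed in another way. Of 71 genes, 44 (62.0%) were lower at the LE than in control skin and 14 (19.7%) were lower than in the hub. None were higher in either case, also at an unadjusted p under 0.05. Of all genes, 10.8% were lower and 11.9% higher than in control skin, and 5.23% lower and 5.39% higher than in the hub. In the hub 0 of 71 were called against control (2 lower and 0 higher at an unadjusted p under 0.05), beside 3.12% of all genes lower and 4.16% higher. Rpl13 was lower at the LE than in control skin by 0.64 ± 0.07 (adjusted p = 0.000169), Rpl32 by 0.48 ± 0.07 (adjusted p = 0.00132) and Rps9 by 0.41 ± 0.07 (adjusted p = 0.00187). The list median was -0.23 for LE minus control, -0.18 for LE minus hub and -0.05 for hub minus control. On single arrays the list median lay from -0.25 to -0.19 at the LE, from -0.06 to -0.03 in the hub and from -0.02 to 0.04 in control skin, so the LE arrays lay apart. Copies of ribosomal protein genes are many and probes can be shared, so single genes of this list are uncertain. The count for LE against hub depended on the fit, from 6 with the replicate number as a block to 54 with a mean-variance trend, and it was 2 without LE replicate 2 or hub replicate 2, 4 without LE replicate 3 or hub replicate 3 and 5 without hub replicate 1. The count for LE against control was 26 without LE replicate 2 or control replicate 3 and 29 without LE replicate 3.

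**Figure D3:**
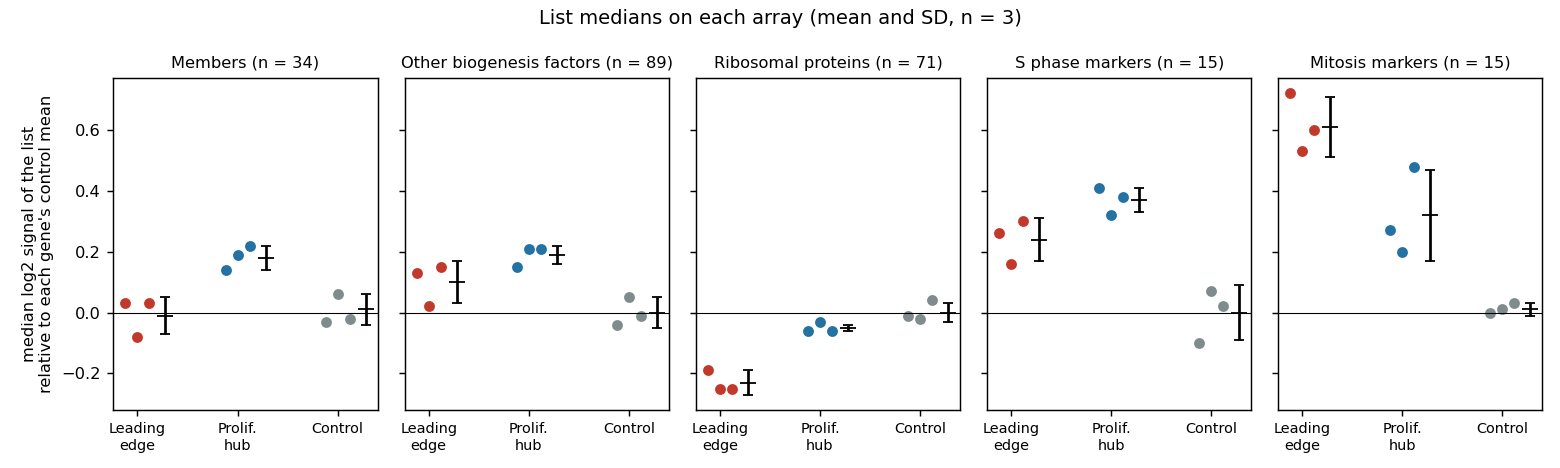
Median log2 signal of 5 gene lists on each array, relative to each gene's mean in control skin (points), with group mean and SD (n = 3 arrays). The members are highest on the hub arrays (0.14 to 0.22), the ribosomal proteins are lowest on the leading edge arrays (-0.25 to -0.19), and the mitosis markers are highest on the leading edge arrays (0.53 to 0.72).

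**Figure D4:**
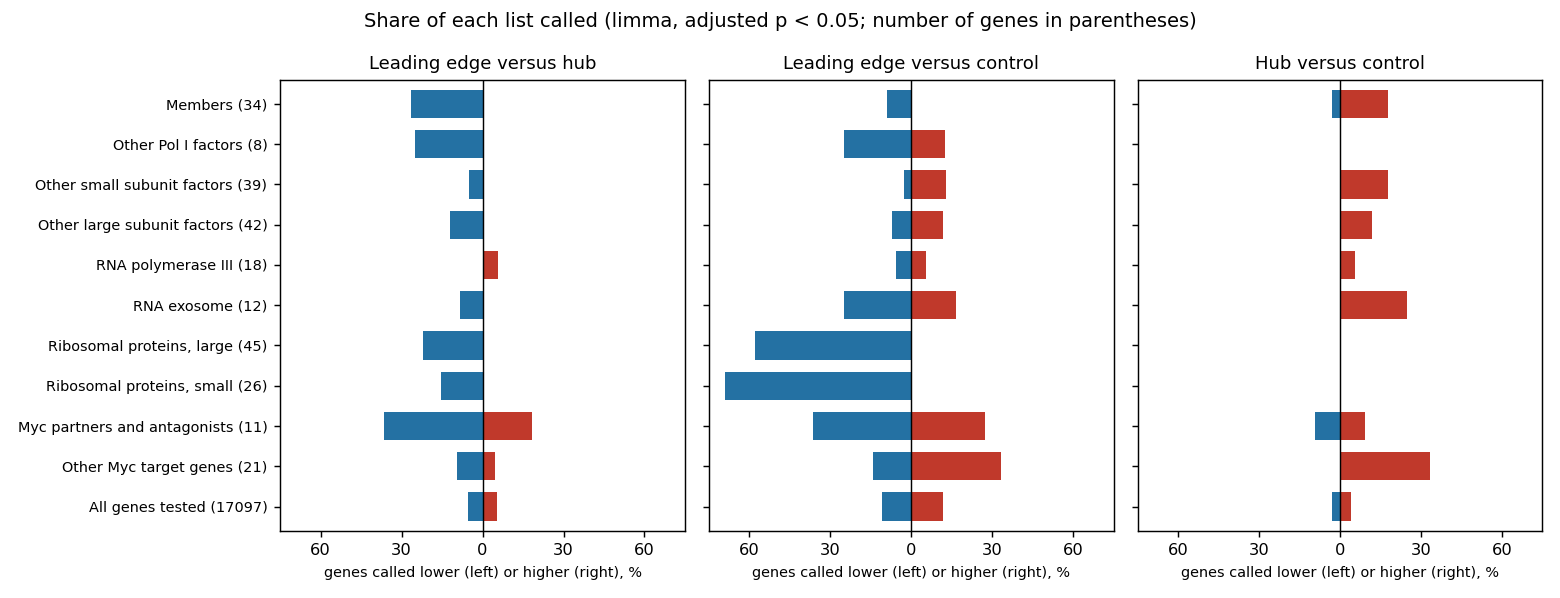
Percentage of the genes of each list called lower (blue, drawn to the left) or higher (red, to the right) in each comparison, with the number of genes in parentheses. The members reach 26.5% lower for leading edge versus hub and 17.6% higher for hub versus control, beside 5.23% and 4.16% of all genes, and ribosomal proteins are the most often lower list drawn for leading edge versus control.

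Partners and antagonists of Myc were examined because Mxd proteins, Mnt and Mga compete for Max and repress E-box genes. Of 11 such genes 4 (36.4%) were lower and 2 (18.2%) higher at the LE than in the hub, beside 5.23% and 5.39% of all genes. Mycl, a paralog of Myc, had the largest difference. It measured 7.0, 6.35 and 6.45 at the LE, 8.51, 8.67 and 8.61 in the hub, and 8.50, 8.89 and 8.80 in control skin. Its differences were -2.00 ± 0.17 for LE minus hub (adjusted p = 9.63e-05) and -2.13 ± 0.17 for LE minus control (adjusted p = 1.82e-05), and its LE values lay below the 90th percentile of nonspecific probe sets. Mycn, the third family member, was not called in any comparison.

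The antagonists did not move together. Mxi1 measured 10.43, 10.37 and 10.20 at the LE, 9.23, 9.36 and 9.47 in the hub, and 9.27, 8.77 and 8.74 in control skin. It was higher at the LE by 0.98 ± 0.14 than in the hub (adjusted p = 0.00195) and by 1.41 ± 0.14 than in control skin (adjusted p = 8.04e-05). Mxd1 was higher by 0.88 ± 0.14 (adjusted p = 0.00294) and 0.75 ± 0.14 (adjusted p = 0.00321). Mxd4 ran the other way, lower at the LE by 0.55 ± 0.09 than in the hub (adjusted p = 0.00424) and by 1.05 ± 0.09 than in control skin (adjusted p = 3.53e-05). It was also lower in the hub than in control skin (-0.50 ± 0.09, adjusted p = 0.0113). Mnt and Mga, named after their values were seen, were lower at the LE than in the hub by 0.29 ± 0.08 (adjusted p = 0.0412) and 0.50 ± 0.14 (adjusted p = 0.0464). These calls were lost in 6 fits for Mnt and 7 for Mga that left out 1 array (limma, adjusted p up to 0.14 and 0.151). Max was not analysed here.

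**Figure D5:**
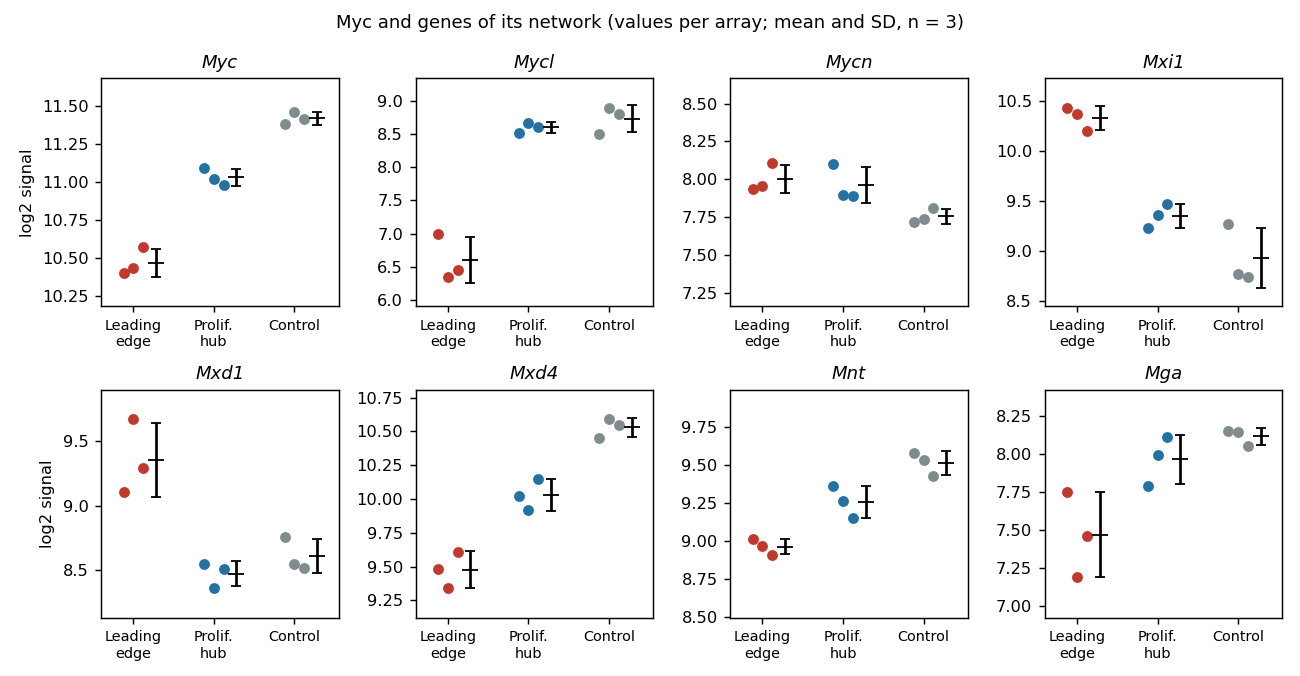
Log2 signal on each array (points) with group mean and SD (bar, n = 3 arrays) for Myc and 7 genes of its network, each panel on its own scale. Myc, Mycl, Mxd4, Mnt and Mga have all leading edge arrays below all hub arrays, while Mxi1 and Mxd1 have them above, and the Mycn groups overlap between leading edge and hub.

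Of 21 other genes known as Myc targets, 2 (9.52%) were called lower and 1 (4.76%) higher at the LE than in the hub, beside 5.23% and 5.39% of all genes. Estimates were below 0 for 16, with a median of -0.15, and 10 (47.6%) had all LE arrays below all hub arrays, beside 15.4% of all genes. Further, 7 (33.3%) were higher and 3 (14.3%) lower at the LE than in control skin, beside 11.9% and 10.8% of all genes. In the hub 7 (33.3%) were higher than in control skin and 0 lower (2 lower at an unadjusted p under 0.05), beside 4.16% and 3.12% of all genes. Odc1, the first enzyme of polyamine synthesis, measured 11.33, 11.36 and 11.33 at the LE, 9.82, 9.70 and 9.99 in the hub, and 8.93, 9.05 and 8.76 in control skin. It was higher at the LE by 1.5 ± 0.10 than in the hub (adjusted p = 2.36e-05) and by 2.43 ± 0.10 than in control skin (adjusted p = 5.08e-07), opposite in direction to Myc. Nme1, a nucleoside diphosphate kinase, was higher in the hub than in control skin by 0.44 ± 0.07 (adjusted p = 0.00389) and Ppat, of purine synthesis, by 0.88 ± 0.14 (adjusted p = 0.00472). Tfrc, the transferrin receptor, and C1qbp, a mitochondrial protein, were lower at the LE than in the hub by 0.48 ± 0.10 (adjusted p = 0.0132) and 0.28 ± 0.07 (adjusted p = 0.0294). These calls were lost in 3 fits for Tfrc and 4 for C1qbp that left out 1 array (limma, adjusted p up to 0.0548 and 0.111).

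Cell cycle genes and markers of other cells also differed between the groups. Of 15 S phase markers, 7 (46.7%) were higher at the LE than in control skin and 6 (40.0%) were higher in the hub than in control skin. Only 1, Rrm2 (6.67%), was higher at the LE than in the hub. That call was lost in 6 of the fits that left out 1 array (limma, adjusted p up to 0.131). S phase markers lower at the LE than in the hub were 0, beside 5.23% of all genes. Estimates were below 0 for 8 of the 15, and at an unadjusted p under 0.05 (limma) 2 were lower and 2 higher. Of 15 mitosis markers, the numbers in the same order were 10 (66.7%), 3 (20.0%) and 2 (13.3%), with 0 lower in any comparison, also at an unadjusted p under 0.05. The 2 called against the hub were Aurka and Ube2c, and their calls were lost in 6 and 8 of the fits that left out 1 array. Of all genes, 11.9%, 4.16% and 5.39% were called higher in these comparisons, so the share for S phase markers at the LE against the hub was near that of all genes. Of 6 markers of the layers above, the keratins Krt1 and Krt10 were lower at the LE than in the hub by 1.73 ± 0.32 (adjusted p = 0.00724) and 1.47 ± 0.22 (adjusted p = 0.0028). The other 4 were not called in that comparison, and Ivl, which encodes involucrin, was higher at the LE than in control skin (0.57 ± 0.14, adjusted p = 0.0161). Krt15, a keratin of bulge and basal cells, had the same order of groups as Myc, with mean log2 values of 8.64 ± 0.11 at the LE, 9.86 ± 0.12 in the hub and 11.05 ± 0.08 for control arrays (SD, n = 3 each). It was called in each comparison (-1.23 ± 0.09 for LE minus hub, adjusted p = 4.19e-05). The log2 of the summed signal of 14 myeloid markers ranged from 11.76 to 11.96 at the LE, 11.33 to 11.37 in the hub and 9.95 to 10.59 in control skin. Of these 14, Cd14 was higher at the LE than in the hub (0.88 ± 0.14, adjusted p = 0.00422), S100a8 was higher in the hub than in control skin (adjusted p = 0.00264), and Ptprc, which marks all leukocytes, lay between 4.06 and 4.81 on every array, near the median of nonspecific probe sets. Against control skin, S100a8, Cd14, S100a9 and Lyz2 were called higher at the LE (28.6%, beside 11.9% of all genes) and 0 lower. Lyz2 measured 8.25, 5.36 and 7.12 at the LE and 4.92 to 5.38 on the other arrays. Its call was lost in 8 of the fits that left out 1 array (limma, adjusted p up to 0.117). Tyrobp, not called, measured 7.32, 5.60 and 7.30 at the LE and 5.39 to 5.78 on the others. In both, LE replicate 2 lay within the range of hub and control arrays. LE minus hub estimates were above 0 for 12 markers and below for 2. S100a8 and S100a9, which wounded keratinocytes are also known to express, had hub minus control differences of 2.51 and 1.48 (adjusted p = 0.0661 for S100a9), and the other 12 markers had differences of -0.18 to 0.21. For 5 Langerhans cell markers the sum ranged from 10.45 to 11.03 at the LE, 9.67 to 9.96 in the hub and 10.12 to 10.29 in control skin. H2-Ab1 and Epcam were called higher at the LE than in the hub (40.0%, beside 5.39% of all genes). Estimates were below 0 for 2 of the 5. Epcam was lower in the hub than in control skin (-0.8 ± 0.16, limma, adjusted p = 0.0154) and was not called for LE against control. H2-Ab1 measured 7.88, 8.02 and 9.55 at the LE. For 10 endothelial markers, 0 of them called in any comparison, the sum ranged from 10.00 to 11.29 at the LE, 10.00 to 10.52 in the hub and 9.70 to 9.86 in control skin. The part of these differences in the results on ribosome biogenesis genes was not tested.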

How the data were processed

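Total RNA of sorted cells was amplified and hybridised by the authors to Affymetrix mouse genome PM strip arrays, 9 in all. The authors normalized the arrays with RMA, and the deposited values are log2 signals of 45141 probe sets. No source used here gives the version of RMA. Because RMA forces 1 distribution on all arrays, differences in total RNA are not seen. Arrays have no depth, and the precision is limited by how many there are.

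Gene names came from the platform annotation (28898 with 1 symbol, 551 with several, 15588 with none, 104 controls), and 28689 of the probe sets with 1 symbol were found by gene identifier in RefSeq of GRCm38.p6. The 17097 genes entered 1 linear model of 3 groups with all 9 arrays (limma 3.58.1 in R 4.3.3, lmFit and eBayes), with two-sided tests, Benjamini-Hochberg adjustment over all genes and calls at an adjusted p under 0.05. No filter on dim genes was applied. The methods of the study name no test but a fold over 2 in each replicate, which was run as an alternative. On simulated data for leading edge versus hub (200 of 17097 genes changed, 10 draws), the test recovered 50.9% of changes of 0.5, 90.9% of changes of 1 and 98.9% of changes of 2 on the log2 scale, and 5.63% of its calls were false.

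The members and lists were chosen with earlier results of these data known, so counts are read beside those of all genes. Named by rule were Myc and, in each role, up to 3 members with the lowest p in any comparison and the member with the highest mean, members whose probe sets differed in calls, and up to 3 called genes of a list with the lowest adjusted p per comparison. Other alternatives were array weights, median centring, a replicate block, repeated quantile normalization, a mean-variance trend, dim genes left out, the mean of all probe sets, all probe sets, only the 6 arrays compared and leaving out each array. Fibroblast, T cell and melanocyte markers were also read, and 1 fibroblast and 1 melanocyte gene were called lower at the leading edge than in control skin, 1 fibroblast gene was called lower in the hub than in control skin, and no T cell gene was called.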

Additional observations from a re-analysis of the deposited data

Results flagged for a closer look

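For 5 genes called against control skin in at least 1 region, the effects of both regions against the shared controls differed by the limma test of leading edge minus hub. The difference was -0.56 for Myc, -0.43 for Nop10, -0.46 for Ncl, -0.35 for Pes1 and -0.32 for Dkc1 (log2). Myc was lower than in control skin in both regions, and more so at the leading edge. Nop10 and Ncl were lower than in control skin at the leading edge and were not called in the hub. Dkc1 and Pes1 were higher than in control skin in the hub and were not called at the leading edge. The differences of Ncl, Pes1 and Dkc1 missed the threshold without some single arrays, as given with each gene.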

How the results depend on the processing

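Limits first: differences of members were mostly under 0.5 on the log2 scale, and signals of dim genes are compressed. In simulated data the test recovered 50.9% of changes of 0.5, in 200 changed genes drawn from all genes, dim ones included. In the data 894 genes were called lower and 922 higher for leading edge versus hub, which sets another cut-off. The rate for the members themselves was not simulated. The 2-fold rule in each same-numbered pair called 0 members, 0 other biogenesis factors and 0 ribosomal proteins in every comparison. For leading edge versus hub, other factors lower were 15 with array weights, against 9. Ribosomal proteins lower, 14 as reported, were 6 with the replicate block, 54 with the trend, 35 with array weights, 23 with dim genes left out, 25 with the mean of all probe sets and 23 with all probe sets, and 1 was higher in the last 2 settings. For leading edge versus control, members lower were 5 with the mean of all probe sets or with all probe sets, against 3, and their median was -0.06 with array weights, against 0.01. Other factors lower were 12 with all probe sets, against 6. Ribosomal proteins lower were 27 with only 6 arrays, against 44, and 1 was higher with the mean of all probe sets or all probe sets. For hub versus control, members higher were 2 with the replicate block and 1 with only 6 arrays, against 6. Other factors higher were 5 with only 6 arrays, against 12, and other factors lower were 1 with the trend, 1 with the mean of all probe sets and 2 with all probe sets, against 0. Ribosomal proteins lower were 7 with the trend, 2 with the mean of all probe sets and 4 with all probe sets, against 0. With the mean of all probe sets, Pes1 reversed to -0.03 for hub minus control (adjusted p = 0.919). The causes were not tested.

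Leaving out 1 array at a time, leading edge versus hub gave 4 to 10 members lower, 4 to 12 other factors lower, 0 to 1 higher, and 2 to 17 ribosomal proteins lower. Leading edge versus control gave 3 members lower in each fit, 0 to 2 higher, 4 to 7 other factors lower, 7 to 13 higher, 26 to 40 ribosomal proteins lower, 0 to 1 higher, and a member median of -0.06 to 0.07. Hub versus control gave 0 to 1 members lower, 0 to 6 higher, and 2 to 10 other factors higher. Of 323 fits of single called members under all alternatives, 247 stayed past the threshold and 75 fell short of it.

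The deviations of same-numbered arrays from their group means correlated from -0.18 to 0.08, with 0 of 9 pairs over 0.1. With 3 arrays per group, these correlations cannot show whether same-numbered arrays came from the same pool of mice. The block shows how the counts change if they are treated as paired.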
